A study of Mus musculus with 12 samples.

Results

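Genes of megakaryocytes and platelets (Pf4, Ppbp, Itga2b, Itgb3, Gp5, Gp6, Gp9, Vwf, Selp and Tubb1) were followed across 4 sorted populations of mouse bone marrow progenitors on Affymetrix Mouse Genome GeneChip arrays. The members were all probe sets whose annotation names exactly 1 gene symbol and whose symbol is one of these 10. This covered 10 of 10 genes, of 18193 in all, by 13 of the 45037 probe sets in the table, with 3 probe sets for Selp, 2 for Itgb3 and 1 for each of the others. The cells came from female C57BL/6 mice aged 4 to 6 weeks and were lineage-negative, CD117+ and Sca-1-, with no other allele or treatment given in the labels. Common progenitors of myeloid and erythroid cells (CMP) were sorted as CD34+ and CD16/32- and divided by CD27, a tumour necrosis factor receptor family protein, into CD27+ CMP and CD27- CMP. Granulocyte-monocyte progenitors (GMP) were CD34+, CD16/32+ and CD27+, and megakaryocyte-erythrocyte progenitors (MEP) were CD34-, CD16/32- and CD27-. Each population had 3 arrays, which the labels call biological replicates without saying whether animals were pooled, so p-values measure only the spread between these arrays.

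Megakaryocytes are the large marrow cells that shed platelets. They arise from progenitors shared with red cells and also, by some routes, close to the stem cell. Their surface carries the integrin alphaIIb-beta3 (Itga2b and Itgb3), which binds fibrinogen, the glycoprotein Ib-IX-V complex (Gp5 and Gp9), which binds von Willebrand factor (Vwf), and the collagen receptor glycoprotein VI (Gp6). Their alpha granules store the chemokines platelet factor 4 (Pf4) and pro-platelet basic protein (Ppbp), von Willebrand factor and the adhesion receptor P-selectin (Selp), and the beta1 tubulin of Tubb1 forms the microtubule coil of the platelet.

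Values are log2 signals centred so that the median of the 12 arrays is 0 for each probe set. A value therefore says how an array compares with the middle array for that probe set, and levels cannot be compared between genes. A difference between populations passed when its adjusted p, from limma with Benjamini-Hochberg adjustment over all 45037 probe sets, was under 0.05. Over the arrays 11 of the 13 probe sets ranged by 1 log2 or more, against 33.9% of all. The flat ones were that of Gp6, with a range of 0.23, and a second one of Itgb3, with a range of 0.28. A flat probe set may be silent or even in all 4 populations, so nothing is said of the level of Gp6.

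The sequence before the annotated start of 4 members is shown first, because the values of Gp5 and Selp differed most between populations and Pf4 and Ppbp are neighbouring chemokine genes with unlike values. They are RefSeq sequences of build GRCm38.p6, 5′ to 3′ on the strand of the gene, and cover the 250 bases that end just before the start, at chr16:30310782-30311031 on the minus strand for Gp5, chr1:164115014-164115263 on the plus strand for Selp, and chr5:90772185-90772434 and chr5:90768268-90768517, both on the plus strand, for Pf4 and Ppbp. Capitals mark GATAA, a core bound by GATA factors, and GGAAG, a core bound by ETS factors, on either strand. The other strand reads TTATC and CTTCC. Other forms of these cores were neither marked nor counted.
Gp5: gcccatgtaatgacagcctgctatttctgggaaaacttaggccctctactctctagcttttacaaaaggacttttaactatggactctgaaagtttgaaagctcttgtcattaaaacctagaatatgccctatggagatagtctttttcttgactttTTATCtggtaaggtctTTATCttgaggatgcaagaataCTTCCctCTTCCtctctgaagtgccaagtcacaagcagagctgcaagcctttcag
Selp: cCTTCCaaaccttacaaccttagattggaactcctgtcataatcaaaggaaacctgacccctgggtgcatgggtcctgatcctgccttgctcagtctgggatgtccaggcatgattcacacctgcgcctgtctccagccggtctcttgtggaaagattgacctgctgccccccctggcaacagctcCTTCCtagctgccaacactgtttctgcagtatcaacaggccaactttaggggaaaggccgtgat
Pf4: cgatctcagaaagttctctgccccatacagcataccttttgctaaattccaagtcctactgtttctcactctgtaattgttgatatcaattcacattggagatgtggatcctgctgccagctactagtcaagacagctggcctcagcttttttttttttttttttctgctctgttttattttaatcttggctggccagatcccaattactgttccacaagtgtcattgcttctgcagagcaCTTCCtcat
Ppbp: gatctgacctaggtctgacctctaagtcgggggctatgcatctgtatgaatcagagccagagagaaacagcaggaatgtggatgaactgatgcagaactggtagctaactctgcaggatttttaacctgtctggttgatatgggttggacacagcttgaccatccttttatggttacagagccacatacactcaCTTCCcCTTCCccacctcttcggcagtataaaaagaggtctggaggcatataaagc
Gp5 held 2 GATAA cores, starting 93 and 77 bases before the start, and 2 GGAAG cores at 55 and 48 bases. Selp held 0 GATAA and 2 GGAAG cores, Ppbp 0 and 2, and Pf4 0 and 1. RefSeq promoters were found for 8 of the 10 genes. Of these, 3 held GATAA (Gp5, Gp6 and Gp9), where 22.6% of 32851 promoters of this length do, and 7 held GGAAG, where 64.1% do. Matches of different motifs can share a base at their ends, and a match is a run of letters, not a measured binding site.

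Among the genes of the sort, Cd34 averaged 4.10 in CD27+ CMP and 3.03 in GMP but -3.22 in CD27- CMP, although that fraction was sorted as CD34+. Cd27 was above 2 in both CD27+ populations and below -2 in both others, the CD16 gene Fcgr3 was highest in GMP (7.16), and the CD117 gene Kit lay between -0.33 and 0.35 in all 4. Array medians ran from -0.0267 to 0.0549. Erythroid markers stood high in CD27- CMP and MEP, where the mean of 9 genes ran from 2.47 to 2.90 per array, and low in CD27+ CMP and GMP, from -4.20 to -2.38.

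**Figure D1:**
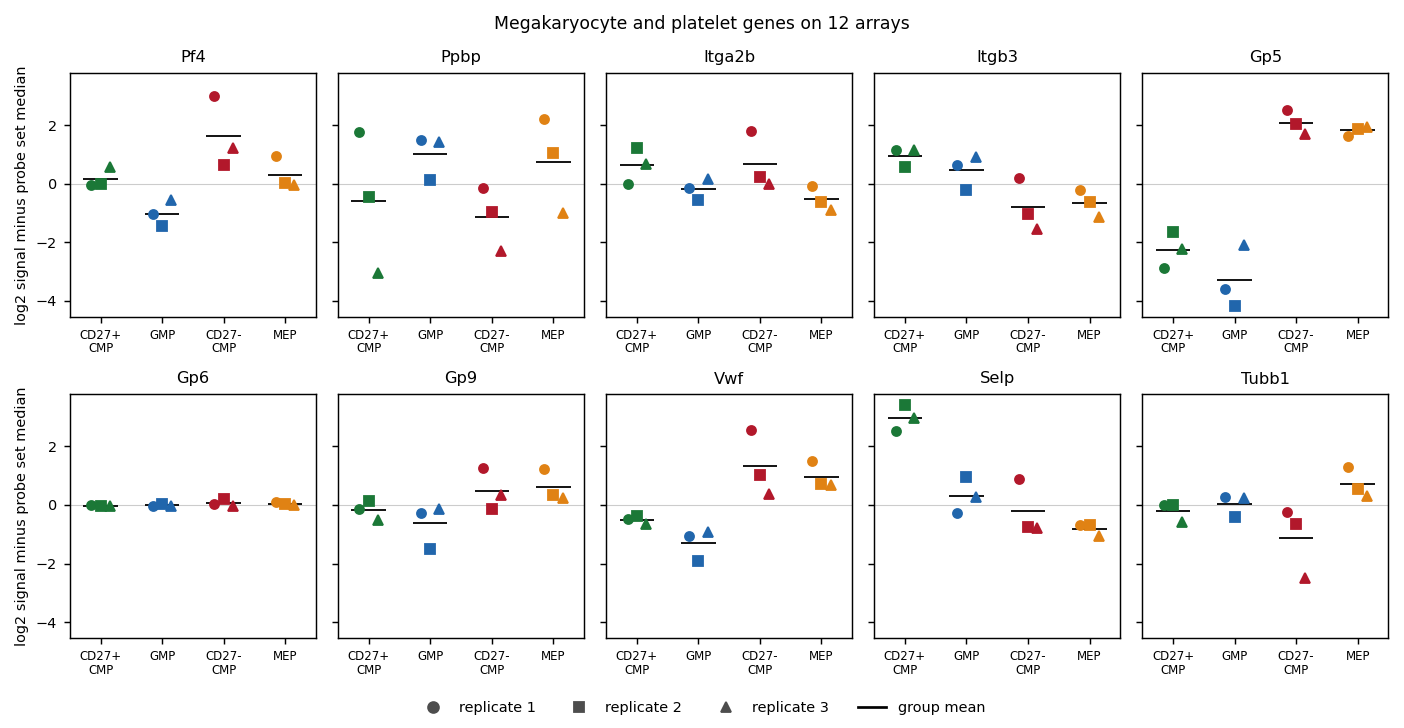
Centred log2 signal of the 10 genes (y axis, log2 units relative to the median array of the probe set) on the 3 arrays of each population (x axis). Symbols give the replicate number and bars the group mean; the probe set with the largest standard deviation is plotted. Gp5 splits the 12 arrays into 6 above 1.6 and 6 below -1.6, Selp is high on the 3 CD27+ CMP arrays, and Ppbp spreads within each population.

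Among the receptors, Gp5 separated the populations by far more than its spread. This gene encodes glycoprotein V, the thrombin-cleaved subunit of the von Willebrand factor receptor. It read 2.51, 2.04 and 1.69 in CD27- CMP and 1.65, 1.89 and 1.94 in MEP. It read -2.88, -1.65 and -2.21 in CD27+ CMP and -3.60, -4.17 and -2.09 in GMP. All 6 arrays of CD27- CMP and MEP lay above all 6 of the other populations, and the pairs within each side overlapped. The log2 difference was 5.36 between CD27- CMP and GMP (SE 0.51, 41.2-fold, adjusted p = 7.1e-05, n = 3 per group), and Gp5 was lower in GMP than in MEP by a log2 difference of -5.11 (34.6-fold, adjusted p = 9.1e-05). CD27+ CMP stood below CD27- CMP, at -4.33 (20.1-fold, adjusted p = 0.00031), and below MEP, at -4.08 (16.9-fold, adjusted p = 0.00041). CD27+ CMP stood 1.04 above GMP and CD27- CMP 0.25 above MEP, and neither passed (adjusted p = 0.61 and 0.87). All 4 calls held in the 19 alternatives of normalization, fit and arrays. The normalization draws weak signals toward background, so the folds are uncertain where one side may lie near it. In these bulk samples a smaller share of cells with a transcript and less transcript per cell cannot be told apart. Erythroid markers were high in the same populations as Gp5, with 7 of 9 lower and 0 higher in CD27+ than in CD27- CMP, and their part in its differences was not tested.

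Other subunits of the complex were not called. Gp9, which encodes glycoprotein IX, read 1.24, 0.33 and 0.24 in MEP and 1.27, -0.15 and 0.35 in CD27- CMP. It read -0.13, 0.13 and -0.50 in CD27+ CMP and -0.26, -1.50 and -0.13 in GMP. The means ran in the order MEP (0.60), CD27- CMP (0.49), CD27+ CMP (-0.17) and GMP (-0.63). All 3 MEP arrays lay above the GMP arrays, but GMP minus MEP gave -1.23 log2 (SE 0.47, adjusted p = 0.14), which failed the threshold, as did every other comparison of Gp9. When only probe sets that ranged by 1 log2 or more were tested, this difference passed (adjusted p = 0.0268). So did that of CD27- CMP minus GMP (1.12, adjusted p = 0.0413). Gp1bb, the glycoprotein Ib beta chain, passed in no comparison, and CD27- CMP stood 2.21 log2 above GMP (SE 0.79, adjusted p = 0.11). The group means of Gp6 differed by at most 0.08 log2, with no call.

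Vwf, the ligand of that receptor, was high on the same side as Gp5. It read 2.55, 1.03 and 0.38 in CD27- CMP and 1.49, 0.72 and 0.67 in MEP. It read -0.49, -0.38 and -0.64 in CD27+ CMP and -1.05, -1.91 and -0.93 in GMP. The populations of the low side did not overlap those of the high side or each other. Vwf was higher in CD27- CMP than in GMP by 2.62 log2 (SE 0.51, 6.13-fold, adjusted p = 0.0069) and lower in GMP than in MEP by a log2 difference of -2.26 (4.77-fold, adjusted p = 0.015). The latter did not pass without MEP replicate 1 (adjusted p = 0.0594) or without GMP replicate 2 (adjusted p = 0.0580). Its difference of -1.82 between CD27+ and CD27- CMP passed narrowly (SE 0.51, adjusted p = 0.043) and was lost in 12 of 19 alternatives, where leaving out CD27- CMP replicate 1 gave -1.21 (adjusted p = 0.07). It was also lost without CD27- CMP replicate 2, any 1 of the CD27+ CMP or MEP arrays, or GMP replicate 1 or 3, at -1.97 to -1.76 and adjusted p from 0.0523 to 0.127. CD27+ CMP minus MEP gave -1.46 (adjusted p = 0.093), and was not called although their arrays did not overlap. This difference passed with these 2 groups alone (adjusted p = 0.0195), with array weights (0.00558) and with a range filter of 1 log2 (0.015). It also passed without CD27- CMP replicate 1 (0.0156) or 3 (0.0473).

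Selp was highest in CD27+ CMP. P-selectin tethers leukocytes and is stored in granules of platelets and of endothelial cells. Its most variable probe set read 2.51, 3.40 and 2.96 in CD27+ CMP. It read -0.28, 0.96 and 0.28 in GMP, 0.90, -0.75 and -0.77 in CD27- CMP and -0.68, -0.69 and -1.07 in MEP. Every CD27+ CMP array lay above every other array, while the GMP and CD27- CMP arrays overlapped. The log2 difference was 3.77 against MEP (SE 0.48, 13.6-fold, adjusted p = 0.00047), 3.16 against CD27- CMP (8.95-fold, adjusted p = 0.0016) and 2.63 against GMP (6.21-fold, adjusted p = 0.019). The first and second held in all 19 alternatives. The difference from GMP was lost in 7 of them, among them the fit with the replicate number as a block (log2 difference 2.63, SE 0.52, adjusted p = 0.0504), where same-numbered arrays of these populations deviated together. It was also lost without GMP replicate 1 (adjusted p = 0.0740) or 3 (0.0538) and without CD27+ CMP replicate 2 (0.0691) or 3 (0.0663).

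The other probe sets of Selp gave the same direction with more spread. One, whose name marks probes that can match related sequences, read 1.94, 3.96 and 1.45 in CD27+ CMP and from -0.08 to 0.94 elsewhere. It passed against CD27- CMP (2.49 log2, SE 0.55, adjusted p = 0.014) and MEP (2.47, adjusted p = 0.013) but not GMP (2.06, adjusted p = 0.11). The third read 1.59, 3.33 and 0.36 in CD27+ CMP and passed in no comparison, with 1.88 against CD27- CMP (SE 0.63, adjusted p = 0.089). CD27+ CMP replicate 2 was the highest array for all 3 probe sets. Endothelial cells also carry Selp and Vwf. Of 11 endothelial markers 3 stood higher and 1 lower in CD27+ than in CD27- CMP, and the list's mean ran from 0.24 to 0.43 per array in CD27+ CMP and from -0.08 to 0.13 in CD27- CMP. Pecam1, shared with platelets and leukocytes, was higher by 5.0 log2 (adjusted p = 3.1e-09), Emcn by 1.64 (adjusted p = 6e-05) and Tie1 by 1.40 (adjusted p = 0.015), and Plvap was lower at -4.25 (adjusted p = 2.3e-06). The other 7 were not called. Emcn was also higher in CD27+ CMP than in GMP, by 1.63 (adjusted p = 0.00049). Of 10 stem cell markers, Cd34 of the sort among them, 6 were higher and 1 lower, with list means of 1.97 to 2.28 in CD27+ CMP and -0.69 to -0.47 in CD27- CMP. Flt3 (8.28 log2) and Cd34 (7.32) had the widest differences of this list, but both are also found on later progenitors. The other higher ones were Hlf (4.06), Procr (3.39), Mecom (3.0) and Meis1 (2.45). The lower one was Slamf1, at -2.06 (adjusted p = 0.00072), and Hoxb5, Fgd5 and Ctnnal1 were not called. The part of such cells in the Selp difference was not tested.

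**Figure D2:**
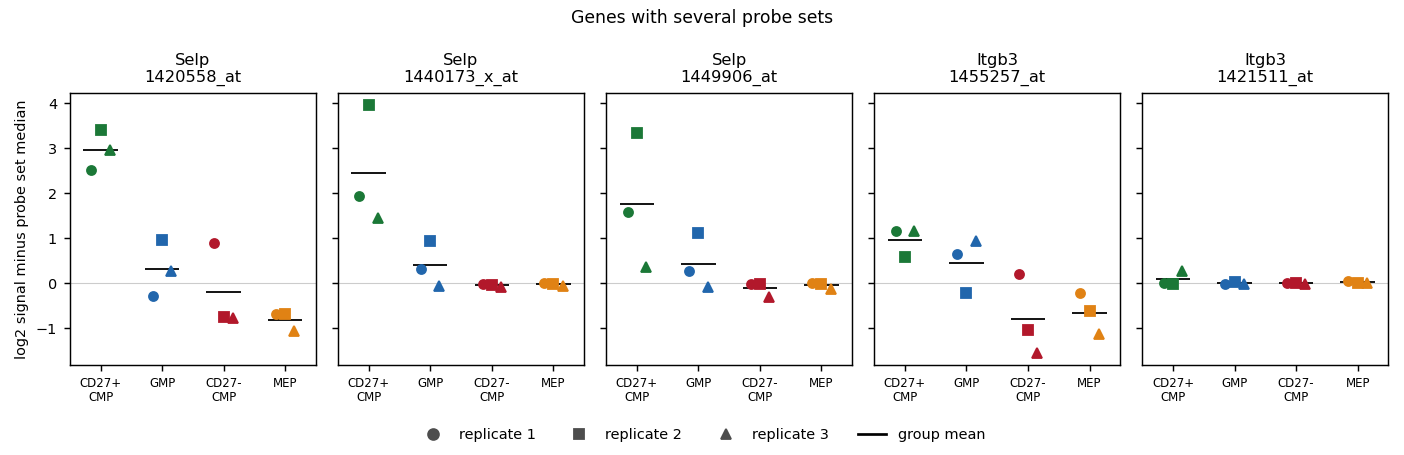
Centred log2 signal (y axis) of the 3 Selp and 2 Itgb3 probe sets by population (x axis), with 3 arrays each and bars at the group mean. All Selp probe sets have their highest group mean in CD27+ CMP, from 1.76 to 2.96, while 1 of the 2 Itgb3 probe sets is flat.

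Of the chains of the fibrinogen receptor, Itgb3 was called and Itga2b was not, and the difference between the chains was not tested. Itgb3, the beta3 chain shared with the vitronectin receptor, read on its most variable probe set 1.16, 0.57 and 1.16 in CD27+ CMP and 0.65, -0.21 and 0.93 in GMP. It read 0.21, -1.04 and -1.55 in CD27- CMP and -0.21, -0.63 and -1.13 in MEP. The CD27+ CMP arrays lay above those of CD27- CMP and MEP, with log2 differences of 1.76 (SE 0.47, 3.38-fold, adjusted p = 0.036) and 1.62 (3.07-fold, adjusted p = 0.047). These were lost in 7 and 9 of 19 alternatives, with adjusted p up to 0.12 and 0.14. The first was lost without MEP replicate 2, GMP replicate 1, CD27+ CMP replicate 1 or 3 or CD27- CMP replicate 2 or 3 (1.38 to 1.76). The other was lost without any 1 of the MEP or CD27+ CMP arrays, GMP replicate 1 or 3 or CD27- CMP replicate 2 (1.38 to 1.84). The difference of -1.25 between CD27- CMP and GMP (adjusted p = 0.14) passed without CD27- CMP replicate 1, at -1.75 (0.0215). The second Itgb3 probe set was flat and differed by 0.08 (adjusted p = 0.50) in the CMP comparison.

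Itga2b encodes the alphaIIb chain, CD41, which marks early megakaryocyte commitment and is also found on some early progenitors. It read 1.80, 0.25 and -0.01 in CD27- CMP, 0.01, 1.23 and 0.68 in CD27+ CMP, -0.15, -0.55 and 0.16 in GMP and -0.08, -0.61 and -0.90 in MEP. Both CMP fractions lay above MEP without overlap, by 1.21 for CD27- CMP (SE 0.49, adjusted p = 0.79) and 1.17 for CD27+ CMP (adjusted p = 0.16), and neither was called. The difference of CD27+ CMP from MEP passed with array weights (1.26, adjusted p = 0.00891) and with a range filter of 1 log2 (0.0392). The CMP fractions overlapped, and their means differed by -0.04 log2 (SE 0.49, adjusted p = 0.96). MEP thus had the lowest group mean of Itga2b, at -0.53, while it had the highest of Gp9.

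The chemokine genes Pf4 and Ppbp lie next to each other on chromosome 5. The order of their group means differed, and this difference between the genes was not tested. Pf4 read 2.99, 0.64 and 1.24 in CD27- CMP, 0.94, 0.02 and -0.04 in MEP, -0.04, -0.02 and 0.56 in CD27+ CMP and -1.04, -1.45 and -0.56 in GMP. The GMP arrays lay below all 9 others. The log2 difference between CD27- CMP and GMP was 2.64 (SE 0.56, 6.24-fold, adjusted p = 0.011), and it was 1.96 without CD27- CMP replicate 1 (adjusted p = 0.0111). It was lost with the spread taken from these 2 groups alone (adjusted p = 0.0858). CD27- CMP stood 1.32 above MEP and CD27+ CMP minus CD27- CMP gave -1.46, both without a call (adjusted p = 0.79 and 0.15). GMP minus MEP gave -1.32 (adjusted p = 0.18), which passed without CD27- CMP replicate 1 (0.036).

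Ppbp read 1.50, 0.14 and 1.42 in GMP and 2.23, 1.07 and -1.01 in MEP. It read 1.78, -0.46 and -3.03 in CD27+ CMP and -0.14, -0.96 and -2.28 in CD27- CMP. GMP had the highest mean of Ppbp and the lowest of Pf4, and CD27- CMP the reverse. The Ppbp difference of -2.14 between CD27- CMP and GMP did not pass (SE 1.23, adjusted p = 0.39), nor did any other. Its CD27+ CMP arrays alone covered most of its range. Its pooled within-group standard deviation was 1.60, higher than that of 99.9% of the 15263 probe sets on the array that ranged by 1 log2 or more, whose median was 0.34. The other 10 such probe sets of these genes lay between 0.61 and 0.81, at the 91.9 percentile or above.

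Tubb1, the platelet tubulin, was highest in MEP. It read 1.31, 0.54 and 0.31 in MEP and -0.25, -0.66 and -2.51 in CD27- CMP. GMP read 0.28, -0.42 and 0.23 and CD27+ CMP 0.01, -0.01 and -0.57. All MEP arrays lay above all 9 others, yet the tests called none of its differences, the widest being CD27- CMP minus MEP, at -1.86 log2 (SE 0.54, adjusted p = 0.60). With array weights CD27- CMP minus MEP passed at -1.26 (adjusted p = 0.0301) and CD27+ CMP minus MEP at -0.8 (0.0215).

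**Figure D3:**
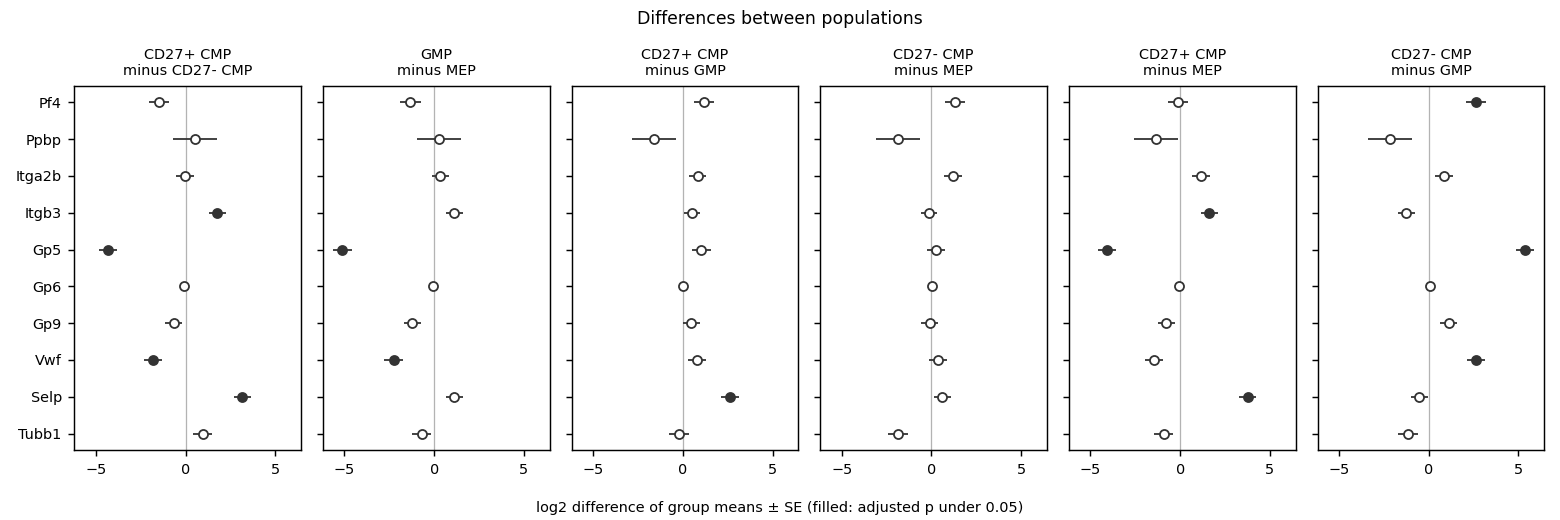
Log2 difference of group means (x axis) with its SE for the 10 genes (y axis) in the 6 comparisons, n = 3 arrays per group; filled points have an adjusted p under 0.05. Gp5 and Selp carry the widest called differences, and no point is filled for CD27- CMP against MEP.

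Counted over probe sets, 5 of 13 passed between CD27+ and CD27- CMP, where 14.1% of all probe sets did, and 4 of 13 between CD27+ CMP and MEP (16.0% of all). Between CD27- CMP and GMP 3 of 13 passed (14.2%), between GMP and MEP 2 (14.8%) and between CD27+ CMP and GMP 1 (3.04%). By limma 0 passed between CD27- CMP and MEP, where 0.0444% of all did. Pf4, Itga2b and Tubb1 had an unadjusted limma p under 0.05 there, but adjusted p from 0.60 to 0.79. The share of all probe sets under that unadjusted threshold was not counted. The comparisons share populations and are not independent of each other.

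Counted over genes, each by its most variable probe set, Selp and Itgb3 were higher and Gp5 and Vwf lower in CD27+ than in CD27- CMP, where 11.3% and 9.31% of 18193 genes were. Selp and Itgb3 were higher and Gp5 lower in CD27+ CMP than in MEP (11.3% and 11.5% of all genes). Gp5, Vwf and Pf4 were higher and 0 members lower in CD27- CMP than in GMP (9.10% and 11.4%). In GMP against MEP 0 were higher (11.0%) and Gp5 and Vwf lower (10.1%). Selp was higher and 0 were lower in CD27+ CMP against GMP (2.27% and 2.25%), and 0 differed in CD27- CMP against MEP (0.0165% of genes each way). The median log2 difference over the 10 genes was -0.06 between the CMP fractions (-0.03 over all genes), -0.37 between GMP and MEP (-0.04) and 0.47 between CD27- CMP and GMP (0.02). It was 0.65 between CD27+ CMP and GMP (-0.01), -0.46 between CD27+ CMP and MEP (-0.05) and 0.14 between CD27- CMP and MEP (-0.02), each difference being the first population minus the second.

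Within each population 1 array was the highest for most of these probe sets. Among the 11 probe sets that ranged by 1 log2 or more, CD27- CMP replicate 1 was the highest array of its group for 11, against 36.3% of all 15263 such probe sets. MEP replicate 1 was the highest for 10, against 43.7%, Gp5 being the exception. In CD27+ CMP replicate 2 was the highest for 7 of 11, against 39.3% of all, and in GMP replicate 3 for 6 of 11, against 36.7%. The median excess of replicate 1 over the mean of the other two arrays was 1.49 log2 in CD27- CMP and 0.67 in MEP, while over all such probe sets it was -0.00 and 0.04. This count was made after the values were seen, and the 3 Selp probe sets read the same gene.

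Other lists bear on those arrays. Of 51 further megakaryocyte and platelet genes with that range, 31 were highest on CD27- CMP replicate 1 (60.8%). In MEP 23 were highest on replicate 1 (45.1%), near the 43.7% of all probe sets, and 22 on replicate 3. Erythroid markers were highest there for 4 of 8 and 1 of 8, stem cell markers for 5 of 7 and 4 of 7, and endothelial markers for 4 of 5 and 3 of 5. Neutrophil and monocyte markers were highest on CD27- CMP replicate 1 for 4 of 9 and on MEP replicate 1 for 9 of 9, with a median excess of 1.28 log2 in the latter, and mast cell and basophil markers for 3 of 6 and 5 of 6. The part of these cells in the array differences was not tested. Without CD27- CMP replicate 1, Gp5 stood 5.15 log2 above GMP (adjusted p = 0.000517), Vwf 2.00 (adjusted p = 0.00695) and Selp 3.71 higher in CD27+ than in CD27- CMP (adjusted p = 0.000252), while the Itga2b difference between the CMP fractions went from -0.04 to 0.52 (adjusted p = 0.592).

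**Figure D4:**
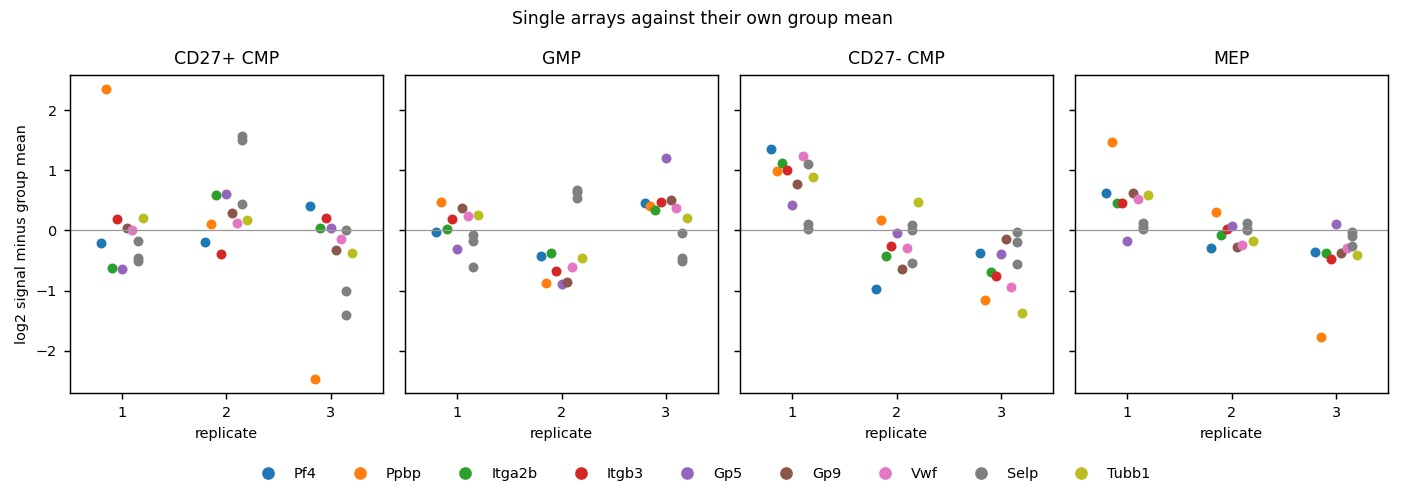
Log2 signal of each array minus its group mean (y axis) for the 11 probe sets that ranged by 1 log2 or more, by replicate (x axis) and population (panels); colours give the gene. All points of CD27- CMP replicate 1 lie above 0, and Ppbp runs from the highest to the lowest point within CD27+ CMP.

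The genes whose 12 values lay nearest to those of a member were found by the root mean square difference, among 3341 genes that ranged by 2 log2 or more. Gp5 was nearest to Zfpm1, which encodes the GATA1 cofactor FOG1 (0.43 log2), C1qtnf12 (0.43) and Reep6 (0.54). Pf4 was nearest to Gp1bb (0.49), to Treml1, encoding a platelet granule receptor (0.52), and to the caveola gene Cavin2 (0.66). Vwf was nearest to the ion channel genes Trpv2 (0.49) and Kcnn4 (0.51) and to Tubb2a (0.51), and Gp9 to Thap7 (0.43), Dele1 (0.47) and Trpv2 (0.48). Selp was nearest to Myct1 (0.53), Osbpl5 (0.56) and Cobll1 (0.57), and Itgb3 to Mxd4 (0.40), Akna (0.41) and Mtmr14 (0.42). Itga2b was nearest to the junctional adhesion gene Esam (0.41), Nrgn (0.49) and Pde10a (0.51), and Tubb1 to Baz1b (0.67), Dctn4 (0.71) and Zbtb7a (0.73). Ppbp had no near match: Clec1b, the platelet podoplanin receptor, was at 0.93, Acp5 at 1.12 and Zc3h13 at 1.14. Among the members the nearest pair was Pf4 and Vwf (0.61), followed by Gp9 and Vwf (0.66), and the farthest was Gp5 and Selp (3.67).

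The wider platelet programme was read from 65 further genes in 6 lists by role, of which 60 were measured with a single symbol. Between CD27+ and CD27- CMP 19 were higher and 8 lower, where 11.3% and 9.31% of all genes were. Between GMP and MEP 22 were higher and 8 lower, where 11.0% and 10.1% of all were. The lower counts lay near these shares and the higher counts above them, so in these comparisons more of them were higher on the side where Gp5 and Vwf were low. Their median log2 difference was 0.08 and 0.31, beside -0.03 and -0.04 over all genes. Between CD27- CMP and GMP 11 were higher and 17 lower (9.10% and 11.4% of all genes, median -0.21), and between CD27+ CMP and MEP 24 and 6 (11.3% and 11.5% of all, median 0.52). Between CD27+ CMP and GMP 8 were higher and 1 lower (2.27% and 2.25% of all, median 0.08), and between CD27- CMP and MEP 2 and 0 (0.0165% of all each way, median 0.26).

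Of 15 platelet receptors and surface proteins, 4 were higher and 1 lower in CD27+ than in CD27- CMP, beside 11.3% and 9.31% of all genes. Fcer1g, the Fc receptor gamma chain that signals for glycoprotein VI and for Fc receptors of myeloid cells, was higher by 5.62 log2 (SE 0.44, adjusted p = 2.3e-05). Pear1, a platelet contact receptor, was higher by 1.99 (adjusted p = 0.00029) and the ATP-gated channel gene P2rx1 by 1.20 (adjusted p = 0.0023). Cd36, a scavenger receptor of platelets, monocytes and other cells, was lower by a log2 difference of -2.54 (adjusted p = 0.0041). Of 11 genes of alpha granule cargo and formation 3 were higher and 0 lower, beside those shares. F13a1, the coagulation factor XIII A chain of platelets and monocytes, stood at 6.20 (adjusted p = 9.6e-05), Nbeal2, needed for alpha granules, at 3.66 (adjusted p = 2.7e-05) and the proteoglycan gene Srgn at 1.01 (adjusted p = 0.00055). F5, coagulation factor V, was higher in GMP than in MEP by 2.10 (adjusted p = 0.0025). In the same comparison 1 of 2 platelet enzymes, the thromboxane synthase gene Tbxas1, was higher, by 2.18 (adjusted p = 0.0094). The 9 neutrophil and monocyte markers include Fcgr3, the CD16 gene of the sort. All 9 were higher in GMP than in MEP and in CD27+ than in CD27- CMP. Their list means per array ran from 2.58 to 4.23 in CD27+ CMP and GMP and from -4.29 to -2.47 in CD27- CMP and MEP. Their part in the higher values of genes shared with myeloid cells was not tested. With the mean of a gene's probe sets in place of the most variable one, the differences between the CMP fractions were smaller but still called for Cd36 (-1.13), Pear1 (0.68) and Nbeal2 (1.86).

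Of 20 genes of cytoskeleton, signalling and secretion 8 were higher and 2 lower in CD27+ than in CD27- CMP, beside the same 11.3% and 9.31% of all genes. The integrin activator gene Rasgrp2 led with 4.76 log2 (SE 0.41, adjusted p = 3.9e-05). The pleckstrin gene Plek was higher by 3.56, the phospholipase gene Plcg2 by 3.38 and the actinin gene Actn1 by 2.12. With the mean of a gene's probe sets Rasgrp2 stood at 2.98 and Actn1 at 0.79, both still called. Plek was also higher in CD27+ CMP than in GMP (2.48, adjusted p = 0.0089), as Selp and Pear1 were (Pear1 2.03, adjusted p = 0.0015). With these groups alone the calls of Plek and Pear1 were lost (adjusted p = 0.0508 and 0.0556). The 11 transcription factors split, with 4 higher and 5 lower, beside those shares. Gata1, Gfi1b and the FOG1 gene Zfpm1, which act in red cells and megakaryocytes, were lower by -5.85, -4.93 and -3.90, and the ETS factor gene Fli1, which drives late megakaryocyte genes, was higher by 2.69 (SE 0.12, adjusted p = 5.7e-07). Fli1 was also 1 of the 2 genes of these lists that differed between CD27- CMP and MEP, at 1.10 (adjusted p = 0.018), and the other was the signalling adaptor gene Lcp2, at 1.23 (adjusted p = 0.011). Both calls were lost with the replicate block (adjusted p = 0.0886 and 0.0756) and with these groups alone (0.287 and 0.197). That of Fli1 was also lost under quantile normalization (0.106), with the mean of its probe sets (0.325) and without MEP replicate 2 (0.0741) or GMP replicate 1 (0.0552).

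**Figure D5:**
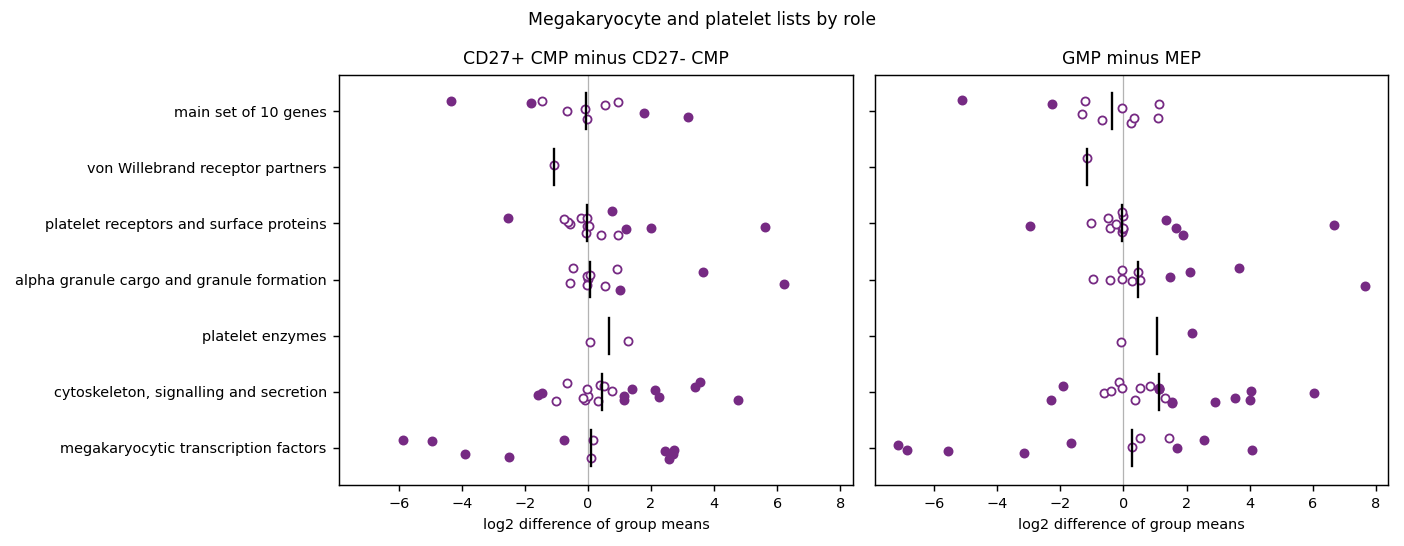
Log2 difference of group means (x axis) of single genes in the main set and 6 further lists (y axis) for CD27+ minus CD27- CMP and GMP minus MEP; filled points have an adjusted p under 0.05 and bars are list medians. The transcription factors spread to both sides, from -5.85 to 2.73 between the CMP fractions, and the granule list reaches 6.20.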

How the data were processed

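Per the submitters' processing notes, the authors made the values with GCRMA, with no version named there. The deposited values were read as log2, since GCRMA gives log2. In each probe set their median was within 5e-07 of 0. Centring removes absolute signal, so no filter on low values was possible and all 45037 probe sets were tested. Of these 34945 had 1 gene symbol, 932 several and 9160 none; 18193 genes were represented by the probe set with the largest standard deviation. Names follow RefSeq of GRCm38.p6, found for 34741 probe sets.

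The tests were made in limma 3.58.1 (R 4.3.3), fitting all 12 arrays with a mean for each population, moderated variances (prior degrees of freedom 0.992), two-sided tests and Benjamini-Hochberg adjustment per comparison. The fit was tested on simulated data with independent normal noise. These held no deviations shared by same-numbered arrays and no arrays of unequal spread, so the simulation does not cover such departures. The number of arrays limits the precision. Members and lists were chosen with earlier results of these data known. Named genes were all members, up to 4 of each further list by largest called difference, the 3 nearest genes of each member with a range of at least 2 log2, and the sort genes; Gp1bb, Lcp2 and single markers were named after their values were seen. Same-numbered arrays deviated together (correlation over 0.1 in all 3 pairs) for GMP with MEP, from 0.275 to 0.576, and for CD27+ CMP with GMP, from 0.226 to 0.572. For CD27+ CMP with MEP the correlations were also positive, at 0.402, 0.0924 and 0.198. For the pairs with CD27- CMP they ran from -0.328 to 0.138. Alternatives were quantile normalization, arrays centred on their median, array weights, a replicate block, a range filter of 1 log2, each pair of groups alone, the mean of a gene's probe sets, and leaving out each array.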

Additional observations from a re-analysis of the deposited data

How the results depend on the processing

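Of 60 differences (10 genes in 6 comparisons), 13 were called, and over 1134 pairs of a difference and an alternative 39 calls were lost, 22 were gained and 0 called differences turned. The member count of 5 between the CMP fractions became 2 with those groups alone, and 3 to 5 when single arrays were left out, with 3 without MEP replicate 2, GMP replicate 1, CD27+ CMP replicate 1 or CD27- CMP replicate 2. For GMP against MEP 2 became 6 with the range filter, and 1 to 3 without single arrays, with 1 without MEP replicate 1 or GMP replicate 2. For CD27+ CMP against GMP 1 became 0 under quantile normalization, 0 with the replicate block, 0 with the 2 groups alone and 2 with the range filter, and 0 to 1 without single arrays, with 0 without GMP replicate 1 or 3 or CD27+ CMP replicate 3. For CD27+ CMP against MEP 4 became 8 with array weights and 7 with the range filter, and 3 to 5 without single arrays. For CD27- CMP against GMP 3 became 5 with array weights, 5 with the range filter and 1 with the 2 groups alone, and 3 to 4 without single arrays. For CD27- CMP against MEP 0 became 1 with array weights and stayed 0 when single arrays were left out. Among the 60 further genes, the 9 calls between CD27+ CMP and GMP became 14 with array weights and 4 with the 2 groups alone, and 5 to 9 without single arrays, with 5 without GMP replicate 1 or CD27+ CMP replicate 3. The 2 between CD27- CMP and MEP became 1 under quantile normalization, 10 with array weights, 0 with the replicate block, 0 with the 2 groups alone and 1 with the mean of probe sets, and 1 to 3 without single arrays, with 1 without MEP replicate 2 or GMP replicate 1. The replicate block changed no other call of the 10 genes. The range filter tests 15263 probe sets and the 2 groups alone use 6 arrays; the cause of the other changes was not tested. Array weights raised the calls over all probe sets between the CMP fractions from 3444 higher and 2925 lower to 4554 and 9183. The weights used were estimated gene by gene, since the restricted likelihood estimate did not converge. They ran from 0.184 for CD27- CMP replicate 3 to 11.1 for MEP replicate 2.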
